A study of Homo sapiens with 4 samples.

Results

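The genes described here are the replication-dependent core histone genes, which were taken as the protein-coding genes with a symbol H2AC, H2BC, H3C or H4C followed by a number. There were 57 of them among the 60708 genes of the count table: 15 for histone H2A, 16 for H2B, 13 for H3 and 13 for H4. The table placed 45 on chromosome 6, 11 on chromosome 1 and 1, H4C16, on chromosome 12 (GRCh38).

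The core histones are the proteins around which DNA is wrapped in the nucleosome, and H2A pairs with H2B as H3 pairs with H4. Their replication-dependent genes are transcribed chiefly in S phase, sit in clusters around which NPAT and its partners form a nuclear compartment called the histone locus body, and mostly lack introns. Their RNA ends in a stem-loop bound by SLBP instead of a poly(A) tail, and that end is cut by a complex that includes the U7 small nuclear RNP. Threonine-4 (T4) of the CTD, the repeated tail of the RNA polymerase II subunit RPB1, has been linked to this 3′ end step in earlier work on histone genes.

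The data were 4 TT-seq libraries, in which RNA made during 20 min of labeling with 4-thiouridine was fragmented, biotinylated, captured on streptavidin and sequenced with strand-specific libraries. All were made from HEK293, a human embryonic kidney line, whose own RPB1 carries a degron, a tag through which auxin triggers its destruction. A plasmid for replacement RPB1 was transiently transfected, and its CTD was the wild type one of the 52X WT group or, in the 52X T4A group, carried T4A (alanine in place of threonine-4) in every repeat. Auxin was given to both groups 48 h after transfection and kept for 48 h, so the 52X WT group (2 libraries) is itself a replacement and not an untouched line. Transfection was transient, and nothing in the labels says whether the libraries of a group came from separate cultures, so p-values measure the spread between libraries only.

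The libraries held between 33188536 and 45605027 counts. One of them stood apart before any histone gene was considered: over the 23321 tested genes, log2 CPM (library-scaled counts after TMM normalization) of 52X T4A replicate 1 correlated at 0.9749 and 0.9745 with the WT libraries and at 0.9786 with T4A replicate 2, whereas T4A replicate 2 correlated at 0.9888 and 0.9884 with the WT libraries and the WT libraries at 0.9913 with each other. Medians and levels are therefore given for both T4A libraries. Of 12 HEK293 markers, 11 passed the filter on low counts, from CDH2 at 271 to 333 CPM down to PAX2 at 1.81 to 2.78 and PAX8 at 0.231 to 1.01, and NEFM was at 0 to 0.136. The 7 markers of other cells, of which PTPRC, ALB and CD3E passed the filter, summed to 1.45 to 3.13 CPM per library, highest in T4A replicate 1, with insulin (INS) at 0 in all, and PAX8 and NEFM were at their level. POLR2A, which encodes RPB1, had 377312 and 384353 counts in WT and 251502 and 279478 in T4A (log2 fold change −0.24, adjusted p = 0.659 by edgeR). Reads of the plasmid and of the cells' own gene cannot be told apart in this value.

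The DNA just upstream of 6 members is printed to show the promoters of each class beside the values that follow. They were chosen after their values were seen: H2AC20, H2BC12, H3C2 and H3C13 had fitted values below 0 and H4C8 and H4C14 above 0, and none passed the adjusted p. Each stretch is the 250 bases before the RefSeq start on GRCh38.p14, on the strand of the gene. Capitals mark the letters of 4 motifs on either strand. These are the octamer ATTTGCAT, the box CCAAT, the TATA box with letters TATAA and the letters GGTCC found in H4 promoters. A run of capitals longer than 1 motif holds motifs that overlap, such as the last of these on the other strand with the box CCAAT. The H2AC20 stretch (chr1:149886668-149886917, plus strand) is shared with H2BC21, which runs the opposite way, and that of H2BC12 (chr6:27146859-27147108, minus strand) with H2AC12. The others lie at chr6:26032100-26032349 on the minus strand (H3C2), chr1:149813694-149813943 on the minus strand (H3C13), chr6:26285535-26285784 on the minus strand (H4C8) and chr1:149832407-149832656 on the plus strand (H4C14).
H2AC20: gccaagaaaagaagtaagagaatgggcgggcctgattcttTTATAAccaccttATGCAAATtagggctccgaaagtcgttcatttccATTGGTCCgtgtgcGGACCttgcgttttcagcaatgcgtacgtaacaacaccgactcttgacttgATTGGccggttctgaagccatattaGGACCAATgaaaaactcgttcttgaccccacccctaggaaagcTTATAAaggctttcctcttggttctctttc
H2BC12: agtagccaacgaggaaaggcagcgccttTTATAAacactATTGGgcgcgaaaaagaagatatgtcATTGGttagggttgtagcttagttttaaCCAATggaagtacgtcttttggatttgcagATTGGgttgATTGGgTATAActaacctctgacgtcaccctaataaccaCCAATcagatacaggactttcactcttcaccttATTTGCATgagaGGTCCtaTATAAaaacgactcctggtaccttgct
H3C2: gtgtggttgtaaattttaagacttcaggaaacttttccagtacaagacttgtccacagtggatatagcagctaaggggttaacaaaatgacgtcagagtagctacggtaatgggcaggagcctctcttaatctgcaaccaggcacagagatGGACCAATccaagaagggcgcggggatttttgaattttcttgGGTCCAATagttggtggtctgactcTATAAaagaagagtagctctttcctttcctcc
H3C13: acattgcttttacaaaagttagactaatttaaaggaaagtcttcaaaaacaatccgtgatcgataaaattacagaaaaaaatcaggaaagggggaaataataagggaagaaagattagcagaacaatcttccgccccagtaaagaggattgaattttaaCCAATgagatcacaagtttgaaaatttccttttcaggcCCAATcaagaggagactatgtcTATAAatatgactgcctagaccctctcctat
H4C8: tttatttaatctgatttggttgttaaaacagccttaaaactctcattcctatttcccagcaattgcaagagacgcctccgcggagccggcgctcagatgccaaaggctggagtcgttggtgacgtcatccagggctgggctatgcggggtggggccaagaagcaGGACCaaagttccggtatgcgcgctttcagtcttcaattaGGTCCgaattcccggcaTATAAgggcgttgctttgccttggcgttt
H4C14: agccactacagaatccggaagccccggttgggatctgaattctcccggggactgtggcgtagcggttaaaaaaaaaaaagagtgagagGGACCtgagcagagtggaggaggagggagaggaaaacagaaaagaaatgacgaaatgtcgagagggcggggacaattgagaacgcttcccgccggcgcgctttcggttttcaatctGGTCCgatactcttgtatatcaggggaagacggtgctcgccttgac

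RefSeq windows of this kind were found for 52 of the 57 members. The octamer, the letters read by POU2F1 (OCT1), was in 11 of 14 H2A and 12 of 16 H2B windows, in 1 of 11 H3 windows and in 0 of 11 H4 windows, against 1.66% of 27305 windows of the same length from all genes. CCAAT, the letters read by the factor NF-Y, was in every H2A, H2B and H3 window, in 2 of 11 H4 windows and in 33.0% of all windows. TATAA was in 13 of 14 H2A, 15 of 16 H2B, 11 of 11 H3 and 9 of 11 H4 windows (19.6% of all), and GGTCC in 1 of 14, 4 of 16, 3 of 11 and 10 of 11 (40.4% of all). H2A and H2B windows were much alike, and several are the same DNA between paired genes. The only H3 window with the octamer was that of H3C4, at chr6:26199294-26199543 on the minus strand. It is the same stretch as the window of H2AC7. H3C4 itself is listed at chr6:26196784-26197286 on that strand, so the stretch does not adjoin its listed span. The stretch was counted in both the H2A and the H3 windows for every motif, so the octamer in 1 H3 window does not describe a separate H3 promoter. No difference between the classes was tested. These matches are a description of the sequence and do not show that a factor binds.

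The comparison of 52X T4A with 52X WT asked how nascent transcription of these genes depends on threonine-4 of the CTD. No core histone gene passed an adjusted p of 0.05 by edgeR, where 1 of the 23321 tested genes did (0.00429%), and the lowest adjusted p of a member was 0.186. Within this limit the classes lay on different sides of 0. The median log2 fold change (T4A over WT) was −0.63 over 11 tested H2A genes, −0.61 over 9 H3 genes, −0.19 over 13 H2B genes and 0.25 over 11 H4 genes, against 0.0 over all tested genes. Much of the distance from WT was in 1 library: the median difference from the mean of both WT libraries was −1.46, −1.05, −0.34 and 0.39 in T4A replicate 1, and −0.17, −0.25, −0.13 and 0.27 in T4A replicate 2, for H2A, H3, H2B and H4 in that order. In bulk RNA, fewer cells in S phase and less histone RNA made per cell cannot be told apart.

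Over the 44 members that passed the filter, 30 had a log2 fold change below 0 and the median was −0.39. By an unadjusted p below 0.05 (edgeR), 9 members were lower and 4 were higher in T4A, and the same shares over all tested genes were 8.02% and 7.45%. Both T4A libraries lay below both WT libraries for 20 of the 44 members and above them for 7, against 24.7% and 24.8% of all tested genes. DESeq2 gave an adjusted p to 26 of these members and called 4, H4C15, H4C8 and H2BC15 higher and H2BC17 lower, with adjusted p-values between 0.0147 and 0.0463, where it called 892 of 8808 genes (10.1%). Without T4A replicate 1, edgeR called 3 members, H3C2 lower and H4C14 and H4C15 higher (2.34% of all tested genes), and the median over members was −0.10. Without T4A replicate 2 it called 28, 23 of them lower (14.6% of all tested genes), and the median was −0.73.

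**Figure D1:**
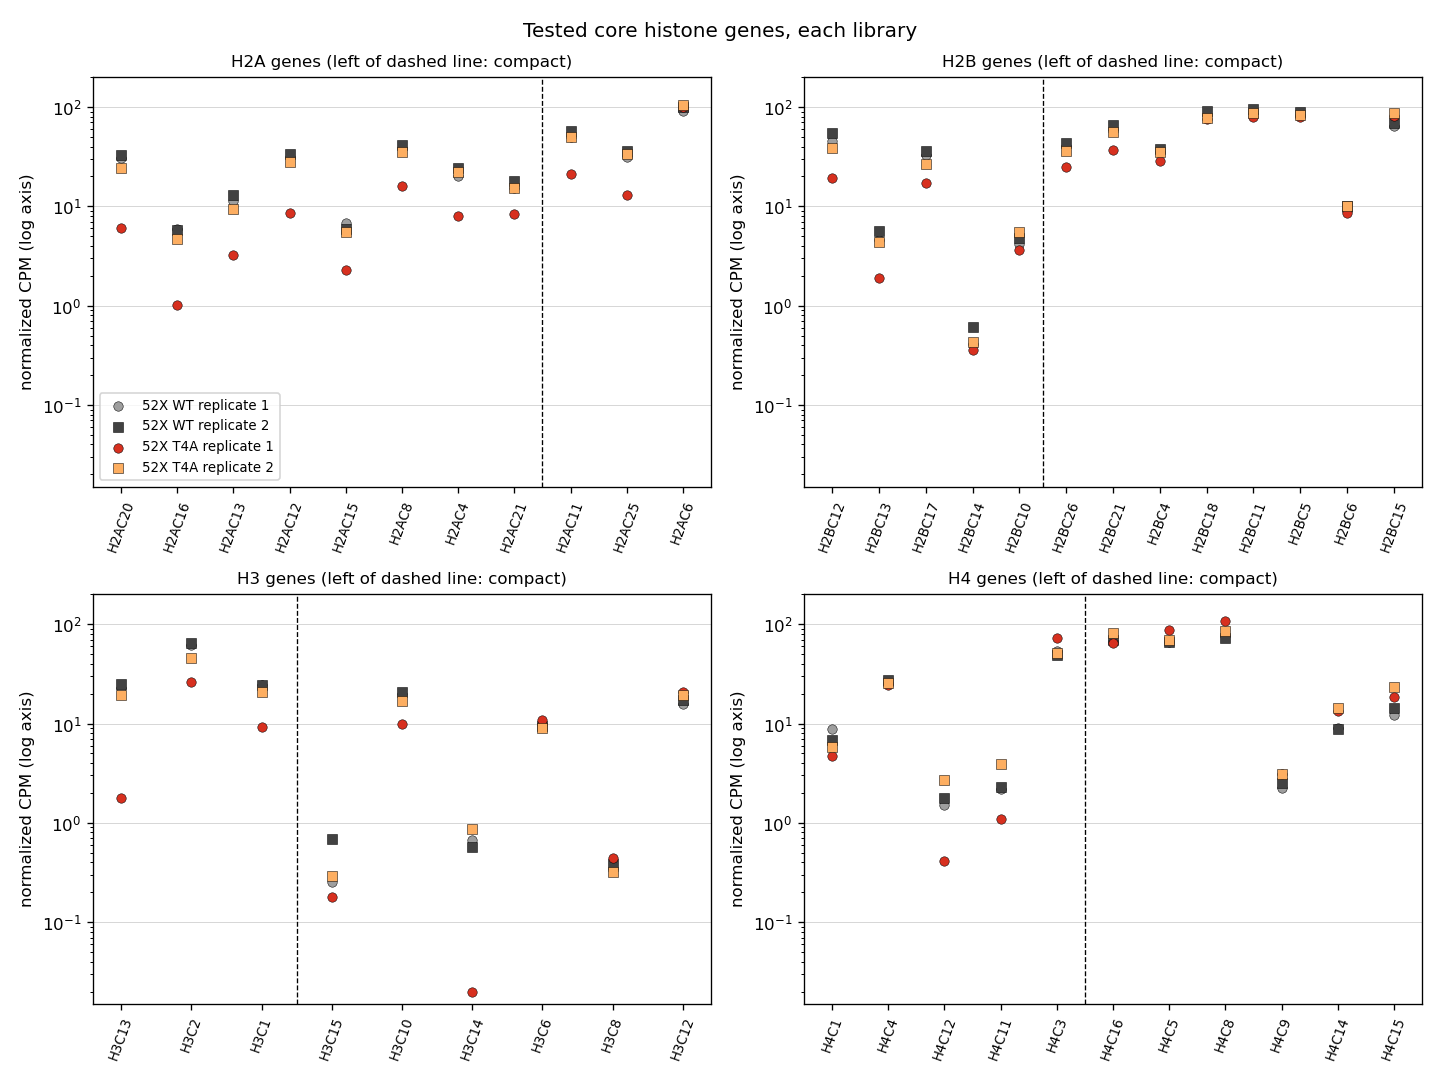
Normalized CPM on a log axis of the 44 tested core histone genes in each of the 4 libraries, by class, with genes of a listed length of at most 600 bases left of the dashed line. 52X T4A replicate 1 sits below both WT libraries for 10 of 11 H2A, 12 of 13 H2B, 6 of 9 H3 and 5 of 11 H4 genes, and T4A replicate 2 for 8, 6, 6 and 2 of them. Over all 23321 tested genes, T4A replicate 1 lay below both WT libraries for 9280 and T4A replicate 2 for 8917. H3C14 had 0 counts in T4A replicate 1 and is drawn near the foot of its panel.

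Among the H2A genes, 10 of 11 tested had a log2 fold change below 0. H2AC20, in the chromosome 1 cluster, had 1198 and 1443 counts in WT and 205 and 832 in T4A, which is 30.6 and 32.7 CPM against 6.11 and 24.1. Both T4A libraries were below both WT libraries, T4A replicate 2 lay closer to WT than to T4A replicate 1, and the fit gave a log2 fold change of −1.07 ± 0.47 (SE, n = 2 per group, adjusted p = 0.324 by edgeR). H2AC13 had 447 and 567 counts in WT and 109 and 323 in T4A, a log2 fold change of −0.95 (adjusted p = 0.304 by edgeR). H2AC8 had 38.8 and 41.2 CPM in WT and 16.0 and 35.6 in T4A, again with T4A replicate 1 far below the other 3 libraries. The same order held for H2AC16, with 5.95 and 5.83 CPM in WT and 1.01 and 4.71 in T4A. H2AC25, which lies apart from the main clusters at the far end of chromosome 1, had 31.4 and 36.3 CPM in WT and 13.1 and 33.7 in T4A, so that T4A replicate 2 lay between the WT libraries. The exception was H2AC6, the most counted H2A gene, with 90.7 and 101.0 CPM in WT and 99.7 and 106.0 in T4A, where the groups overlapped. Its listed span of 14972 bases is far longer than the histone RNA itself.

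H3 resembled H2A in its medians. H3C2 was the H3 gene with the most counts, 2430 and 2867 in WT and 874 and 1576 in T4A, or 62.1 and 65.0 CPM against 26.0 and 45.6. Neither T4A library reached the WT level, the log2 fold change was −0.83 ± 0.21 (SE, n = 2 per group) and the adjusted p by edgeR was 0.209. Left without T4A replicate 1, H3C2 was lower by a log2 fold change of −0.46 (adjusted p = 0.0299 by edgeR). H3C1 had 24.7 and 24.4 CPM in WT and 9.21 and 20.6 in T4A, and H3C10 20.0 and 20.9 in WT and 9.86 and 17.0 in T4A, both with the groups apart. H3C13 had T4A libraries far apart, with 894 and 1107 counts in WT, 60 in T4A replicate 1 and 675 in T4A replicate 2. Its difference from the WT mean was −3.71 in the first and −0.29 in the second on the log2 scale, and the fit, with a log2 fold change of −1.17 ± 0.73 (SE), had an adjusted p of 0.461 by edgeR. H3C12, whose listed span is 2792 bases and is overlapped by another gene of its strand over 14.6% of it, went the other way with 15.7 and 17.3 CPM in WT and 20.7 and 19.3 in T4A. H3C14 and H3C15 had at most 30 counts in any library, and the values of these near-identical copies carry little weight.

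Of 13 tested H2B genes, 11 had a log2 fold change below 0, and T4A replicate 1 was below both WT libraries for 12 and T4A replicate 2 for 6. Of all 23321 tested genes, 9280 lay below both WT libraries in T4A replicate 1 and 8917 in T4A replicate 2. H2BC12 had 1799 and 2437 counts in WT and 640 and 1323 in T4A, or 46.0 and 55.3 CPM against 19.1 and 38.3, a log2 fold change of −0.82 ± 0.27 (SE, n = 2 per group, adjusted p = 0.248 by edgeR). H2BC17 had 33.0 and 36.2 CPM in WT and 17.4 and 27.0 in T4A, and H2BC26 40.1 and 43.2 in WT and 25.1 and 36.0 in T4A. These 3 genes had both T4A libraries below both WT libraries, as did H2BC21 with 57.3 and 65.4 CPM in WT and 36.8 and 55.8 in T4A. The most counted H2B genes lay nearer to 0. H2BC11 had 85.1 and 94.6 CPM in WT and 80.0 and 86.8 in T4A, H2BC5 82.7 and 88.9 in WT and 78.8 and 83.5 in T4A, and H2BC18 82.9 and 91.0 in WT and 76.0 and 77.0 in T4A. The groups overlapped for H2BC11 and H2BC5 but not for H2BC18, whose span is overlapped over 24.8% of it by another gene of the same strand. H2BC15, with a listed span of 17950 bases, was higher at 82.2 and 87.4 CPM in T4A than at 65.2 and 69.9 in WT, a log2 fold change of 0.33 ± 0.09 (SE, adjusted p = 0.218 by edgeR).

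H4 was the class whose T4A libraries lay mostly above WT. Both T4A libraries stood above both WT libraries for 5 of its 11 tested genes and below them for 2. The shares over all tested genes were 24.8% above and 24.7% below. The 5 above (H4C5, H4C8, H4C9, H4C14 and H4C15) had long listed spans, from 1294 to 8030 bases. The 2 below, H4C1 and H4C4, had listed spans of 402 and 403 bases. H4C8 had 75.9 and 73.5 CPM in WT and 107.0 and 86.4 in T4A, with no overlap and a log2 fold change of 0.37 ± 0.11 (SE, n = 2 per group, adjusted p = 0.237 by edgeR). H4C5 had 66.1 and 66.1 CPM in WT and 87.4 and 69.4 in T4A. H4C14 had 351 and 390 counts in WT and 450 and 496 in T4A, a log2 fold change of 0.64 ± 0.15 (SE, adjusted p = 0.186 by edgeR), and H4C15 had 480 and 638 in WT and 624 and 814 in T4A, a log2 fold change of 0.66 ± 0.16 (SE, adjusted p = 0.203 by edgeR). The shortest transcripts of these 2 genes share every 50-base window, so reads inside these windows match both genes. Only unique alignments were counted, so such reads could be counted for neither gene. The counts of H4C14 and H4C15 therefore come from reads that reach other parts of their listed spans, which are 7109 and 7166 bases long. Their values do not measure the histone RNA itself. H4C3 had 53.4 and 49.2 CPM in WT and 72.5 and 50.8 in T4A, so T4A replicate 1 was above WT and T4A replicate 2 was between the WT libraries. H4C16 on chromosome 12 had 67.9 and 68.9 CPM in WT and 64.8 and 82.5 in T4A, on both sides of WT. H4C1 was the H4 gene with the lowest fitted value, with 348 and 298 counts in WT and 159 and 201 in T4A (log2 fold change −0.57 ± 0.21 SE, adjusted p = 0.275 by edgeR).

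Sums over all members of a class, which also count the genes under the filter, had log2 ratios of −0.60 for H3, −0.43 for H2A, −0.19 for H2B and 0.24 for H4. H2A summed to 333 and 369 CPM in WT and 188 and 334 in T4A, H2B to 546 and 604 against 459 and 547, H3 to 157 and 164 against 79.1 and 132, and H4 to 325 and 322 against 398 and 368. The groups did not overlap for H3 and H4 (exact two-sided permutation test over libraries, p = 0.333, the smallest that 2 against 2 libraries can give) and overlapped for H2A and H2B (p = 0.667 by the same exact test). H4 held 23.9% and 22.1% of the core histone CPM in WT and 35.4% and 26.6% in T4A, while H3 held 11.5% and 11.2% in WT and 7.04% and 9.58% in T4A. The ratio of H4 to the sum of the other 3 classes was 0.314 and 0.283 in WT and 0.548 and 0.363 in T4A (exact permutation p = 0.333). The sum over all 57 members was 1361 and 1459 CPM in WT and 1124 and 1382 in T4A (log2 ratio −0.17, exact permutation p = 0.667).

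A replication-dependent histone RNA is short, but the listed length, which equalled the genomic span for every gene of the table, ran from 386 to 29685 bases over the members. For a member with a long span, reads in introns or downstream of the stem-loop were counted together with those of the histone RNA. The members were therefore also described, after their values had been seen, as compact (listed length of at most 600 bases, 33 members, 21 tested) and extended (895 bases or more among the tested, 24 members, 23 tested). The median log2 fold change was −0.64 for compact and −0.03 for extended members. In T4A replicate 1 the compact members had a median difference from WT of −1.39 and the extended ones of −0.12, and in T4A replicate 2 the values were −0.21 and 0.0. Both T4A libraries were below both WT libraries for 15 of 21 compact members and above them for 0, and for the extended members the counts were 5 and 7 of 23. The shares over all tested genes were 24.7% below and 24.8% above, and the extended counts lay near them.

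The compact members of H2A, H2B and H3 had medians of −0.77, −0.64 and −0.83. T4A replicate 1 was below both WT libraries for all 16 tested genes of these 3 classes, and T4A replicate 2 for 13 of these with a median difference of −0.23. The same counts over all 23321 tested genes were 9280 and 8917. Their sum was 359 and 392 CPM in WT and 133 and 307 in T4A, which is 35.5% and 81.6% of the WT mean. Compact H4 differed from them in its sum, 91.9 and 87.4 CPM in WT and 103 and 88.6 in T4A, or 115% and 98.9% of the WT mean. That sum rested on H4C3, and the median of the 5 tested compact H4 genes was −0.06. T4A replicate 1 lay below both WT libraries for 4 of these 5, with a median difference of −0.70 from the WT mean. T4A replicate 2 lay below both for 2 of them, with a median difference of −0.01. Most compact H4 genes were thus also below WT in T4A replicate 1. Both T4A libraries were above both WT libraries for 0 of these 5 genes and below them for 2. For the 6 tested extended H4 genes the counts were 5 above and 0 below. H4C11 and H4C12, which share about 92% of their 50-base windows, had 2.17 and 1.51 CPM in WT replicate 1 but 1.10 and 0.417 in T4A replicate 1 and 3.93 and 2.72 in T4A replicate 2. The ratio of compact H4 to compact H2A, H2B and H3 was 0.256 and 0.223 in WT and 0.773 and 0.289 in T4A (exact permutation p = 0.333).

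**Figure D2:**
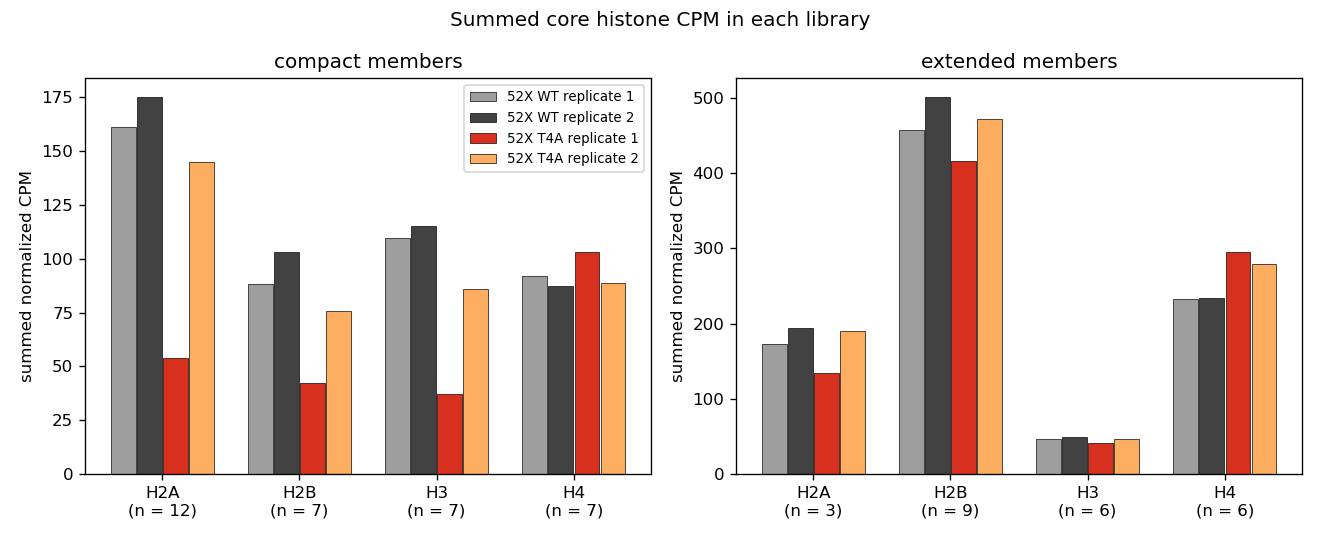
Summed normalized CPM of compact (left) and extended (right) members of each class, 1 bar per library, with axes that start at 0 and differ in scale between the panels. Compact H2A, H2B and H3 stand lowest in 52X T4A replicate 1, at 53.8, 42.5 and 37.1 CPM, while extended H4 stands higher in both T4A libraries, at 295 and 279 CPM against 233 and 234 in WT.

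Extended members kept less distance from WT in H2A, H2B and H3, with medians of −0.53, −0.15 and −0.24, and extended H4 had a median of 0.38 with T4A replicate 2 above both WT libraries for all 6 genes. Of all 23321 tested genes, 8666 lay above both WT libraries in T4A replicate 2. As compact over extended CPM, H3 stood at 2.34 and 2.32 in WT and at 0.882 and 1.84 in T4A, and H2A at 0.931 and 0.900 in WT and 0.401 and 0.764 in T4A (exact permutation p = 0.333 each). Other short genes that code for protein were also lower in T4A replicate 1. Of these, the 6 tested ones of at most 600 bases had a median difference from WT of −0.55 in that library, with 6 of 6 below both WT libraries, and of 0.02 in T4A replicate 2. The 26 of at most 1000 bases, without H1 genes, had −0.49, with 22 below both WT libraries, and 0.05. Over all 528 other tested genes of at most 600 bases, most of which do not code for protein, the medians were −0.01 and 0.08. With a trend by listed length over all tested genes removed, the class medians were −0.64 for H2A, −0.21 for H2B, −0.59 for H3 and 0.28 for H4. That fit was not summarized for compact members apart, and the part of gene length in their values was not tested.

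**Figure D3:**
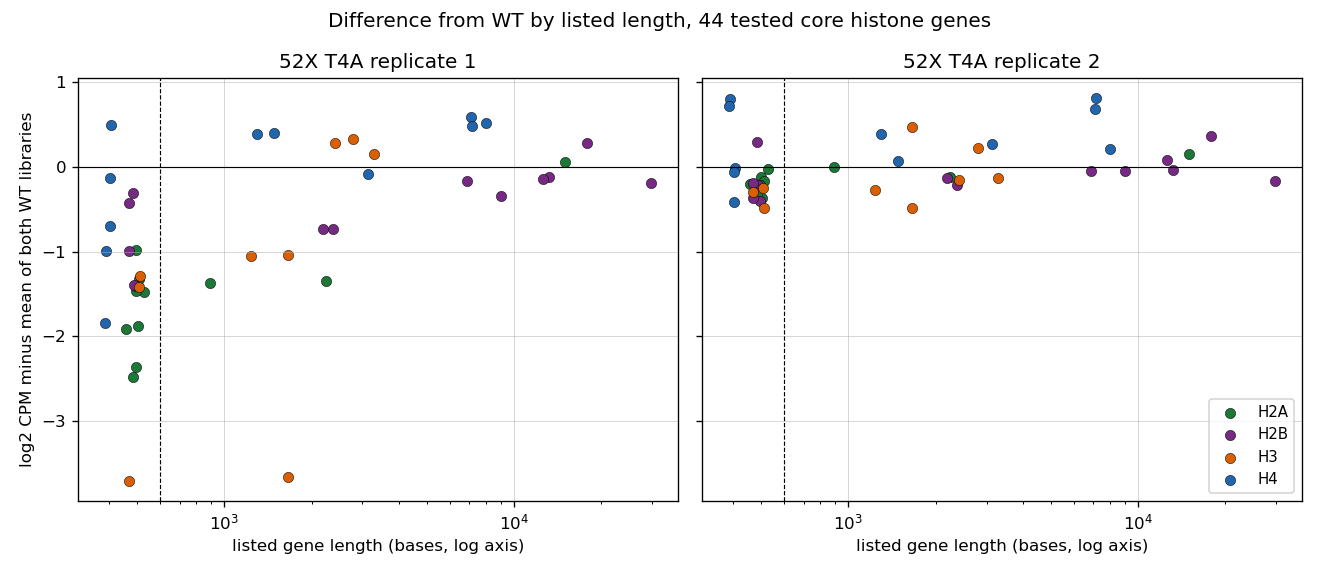
Difference in log2 CPM of 52X T4A replicate 1 (left) and replicate 2 (right) from the mean of both WT libraries against listed gene length (log axis), 1 point per tested core histone gene, colored by class, with the dashed line at 600 bases. Most compact genes lie below 0 in replicate 1, with a median of −1.39, and close to 0 in replicate 2, with a median of −0.21, while H4 genes (blue) of over 600 bases lie mostly above 0 in both.

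Expressed per kilobase of listed length, the compact genes with the highest levels in WT were H4C3 at 132 and 121 CPM per kb, H3C2 at 121 and 127, H2BC12 at 92.9 and 112, H2AC8 at 76.2 and 81.0, H2BC17 at 70.6 and 77.5, H2AC12 at 68.3 and 73.7 and H4C4 at 64.2 and 67.7. H4C3 and H3C2 overlapped, as did H2AC8 with H2BC17 and H2BC17 with H2AC12, and the other neighbors in this order did not. The compact classes ranged widely, from 9.08 to 64.7 in H2A, 0.968 to 80.1 in H2B, 36.9 to 97.2 in H3 and 4.14 to 139 in H4, among tested genes, as means over the 4 libraries. In T4A replicate 1, H4C3 and H4C4 stood at 0.50 and −0.13 from the WT mean on the log2 scale, and H3C2, H2BC12, H2AC8, H2BC17 and H2AC12 at −1.29, −1.40, −1.32, −0.99 and −1.91.

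The clusters were compared by chromosome. The 32 tested genes on chromosome 6 had a median log2 fold change of −0.15 and the 11 on chromosome 1 of −0.49, with −0.57 and −0.98 in T4A replicate 1 and −0.09 and −0.13 in T4A replicate 2. In sums, chromosome 6 gave 991 and 1054 CPM in WT and 859 and 999.7 in T4A, and chromosome 1 gave 303 and 336 in WT and 199 and 300.2 in T4A. The ratio of chromosome 1 to chromosome 6 was 0.305 and 0.319 in WT and 0.232 and 0.30 in T4A, so the groups did not overlap, but T4A replicate 2 lay close to WT (exact permutation p = 0.333). The difference between the medians of the chromosomes was no smaller among compact genes, at −1.07 for 3 on chromosome 1 and −0.64 for 18 on chromosome 6, and among extended genes, at −0.43 and 0.05. Those 3 compact genes are H3C13, H2AC20 and H2AC21, and no compact H4 or H2B gene lies there, so the class makeup of the clusters differs.

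The members on chromosome 6 fall into 2 blocks on either side of the widest gap between them, at chr6:25726063-26285638 and chr6:27125897-27893891, with 16 tested in each and medians of −0.06 and −0.61. T4A replicate 1 stood at −0.14 and −1.20 from WT in these blocks and T4A replicate 2 at −0.04 and −0.19. The first block holds several H4 genes and long-span genes, among them H4C3, H4C5, H4C8 and H2AC6, and also H3C2, so position and class cannot be told apart here. On chromosome 1, the 9 genes at chr1:149782689-149887965 had a median of −0.49, and H2AC25 and H2BC26 at chr1:228456979-228460470 had −0.53 and −0.45.

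H2A and H2B genes often lie head to head and share the DNA between their starts. There were 9 such pairs with at most 400 bases between the listed starts, and both genes were tested in 6. In T4A replicate 1 the H2A gene was further below WT than its H2B neighbor in 5 of these 6 pairs. H2AC20 stood at −2.36 and H2BC21 at −0.73, H2AC11 at −1.34 and H2BC11 at −0.16, and H2AC25 at −1.37 and H2BC26 at −0.73 (log2 difference from the WT mean). In each of these 3 pairs the listed span of the H2B gene was the longer one. Where both genes are compact the gap was smaller, with H2AC12 at −1.91 and H2BC12 at −1.40, and H2AC13 at −1.88 and H2BC13 at −1.39. The pair of long spans, H2AC6 and H2BC4, stood at 0.06 and −0.34. In T4A replicate 2 the H2A gene was the lower one in 3 of 6 pairs.

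Motifs upstream followed the classes, and their medians have to be read with that in mind. The 32 tested genes with CCAAT had a median log2 fold change of −0.51 (−1.02 and −0.16 in the T4A libraries, replicate 1 first) and the 8 without it, all H4, had 0.21 (0.16 and 0.48). Genes with GGTCC (14) had a median of 0.03 (−0.16 and 0.14) and those without (26) of −0.51 (−1.02 and −0.14). Within H2A and H2B, the 16 tested genes with the octamer and the 7 without it had medians of −0.45 and −0.53.

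The remaining 13 members were under the filter, and 17 had at most 30 counts in every library. H2BC1 had 0 counts in all 4 libraries. H3C4 and H2AC7 were also listed at 0, but both lie entirely within the span of another gene on the same strand, where featureCounts by default assigns reads to neither, so this 0 gives no level. The same overlap covered 83.8% of H2AC17. H2AC1, H3C3, H4C7, H3C7, H3C11 and H4C13 had at most 3 counts, and H2BC3, H2BC9 and H2AC14 at most 10. Only unique alignments were counted, and the share of the shortest transcript's 50-base windows found in other histone genes was over 50% for 9 of the 44 tested members, with a median of 3.06%. Those with high shares included H3C13 (78.3%), H2AC13 (63.5%, with H2AC14) and H2BC12 (57.2%), with fitted values below 0. H4C14 and H4C15 (100% each) had fitted values above 0, from reads that reach outside these windows. H3C2, H3C1, H2AC8, H4C1, H4C3 and H4C8 shared none. The part of shared sequence in these values was not tested. RefSeq names 6 more core histone genes (H2AC18, H2AC19, H4C2, H2BC7, H2BC8 and H4C6) at table rows whose identifiers had no symbol in the gene names used. The set of members thus depends on that source of names. H4C2 had 2107 and 2435 counts in WT and 2631 and 2055 in T4A, and H2BC7 423 and 575 in WT and 218 and 283 in T4A. With all 6 added the median over 49 tested genes was −0.41.

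Genes around this pathway were described from lists. The linker histone H1 genes, which share the clusters and the stem-loop, had a median of −0.83 over 3 tested of 5 (−0.97 and −0.51 in T4A replicates 1 and 2). Both T4A libraries were below both WT libraries for all 3, against 24.7% of all tested genes. H1-2 had 78.0 and 80.9 CPM in WT and 44.1 and 55.6 in T4A, a log2 fold change of −0.67 ± 0.12 (SE, adjusted p = 0.150 by edgeR). H1-4 had 60.0 and 66.6 CPM in WT and 14.3 and 50.2 in T4A, and H1-3 2.81 and 3.13 in WT and 1.49 and 1.85 in T4A. H1-1 and H1-5 had at most 19 counts in a library. By unadjusted p below 0.05 (edgeR), 2 of the 3 were lower, against 8.02% of all tested genes.

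Histone variants made from polyadenylated RNA outside the clusters had a median of 0.15 over 11 genes (0.09 and 0.21 in the T4A libraries), and 0 passed the adjusted p. By unadjusted p below 0.05 (edgeR), 3 of the 11 were higher, H2AZ1 and H3-3A among them, and 1, MACROH2A2, was lower. The shares of all tested genes at that p were 7.45% higher and 8.02% lower. H2AZ1 had 70.1 and 61.2 CPM in WT and 87.5 and 84.3 in T4A, and H3-3A 124 and 135 in WT and 158 and 155 in T4A. MACROH2A2 was lower at 19.4 and 17.4 CPM in T4A against 25.2 and 23.2 in WT, and MACROH2A1, the most counted variant, overlapped between the groups. The exceptions in T4A replicate 1 were H2AX, whose gene can give both stem-loop and polyadenylated RNA, with 44.9 and 52.1 CPM in WT and 8.67 and 43.7 in T4A, and H1-10 with 26.3 and 29.8 in WT and 4.59 and 34.4 in T4A.

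Factors of histone transcription and RNA processing had medians near 0. The 11 histone locus body genes and activators had a median of −0.05 (−0.01 in T4A replicate 1 and −0.05 in T4A replicate 2). CCNE2 and CCNE1, the E-type cyclins whose kinase acts on NPAT, were the 2 with unadjusted p below 0.05 on the higher side, at 70.3 and 71.4 CPM in T4A against 55.5 and 55.2 in WT for CCNE2, and 44.4 and 41.0 against 34.4 and 35.3 for CCNE1. CASP8AP2 (FLASH), which links the locus body to 3′ processing, was on the lower side with 64.0 and 62.6 CPM against 71.9 and 76.5 in WT, and NPAT overlapped between the groups. The 14 genes of histone RNA 3′ processing and decay had a median of −0.09 (−0.09 and −0.07 in T4A replicates 1 and 2), and CPSF3, the cleavage subunit, was lower by unadjusted p with 46.0 and 44.4 CPM in T4A against 52.8 and 58.7 in WT. SLBP had 159 and 158 CPM in WT and 188 and 171 in T4A (adjusted p = 0.375 by edgeR), and LSM10, of the U7 snRNP, 8.89 and 9.60 against 5.33 and 8.10.

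The 28 S phase genes, which are expressed with DNA replication, had a median of 0.07 (0.04 in each T4A library). By unadjusted p below 0.05 (edgeR), 6 were higher (RRM2, CDC6, NASP, TYMS, PCNA and MCM4), against 7.45% of all tested genes, and 0 passed the adjusted p. PCNA, the replication clamp, had 187 and 196 CPM in WT and 232 and 224 in T4A, and RRM2, a subunit of ribonucleotide reductase, had 298 and 294 in WT and 365 and 362 in T4A. CDT1, a replication licensing factor, had 21.4 and 23.5 CPM in WT, 4.74 in T4A replicate 1 and 20.6 in T4A replicate 2, so that T4A replicate 1 alone was far from WT.

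**Figure D4:**
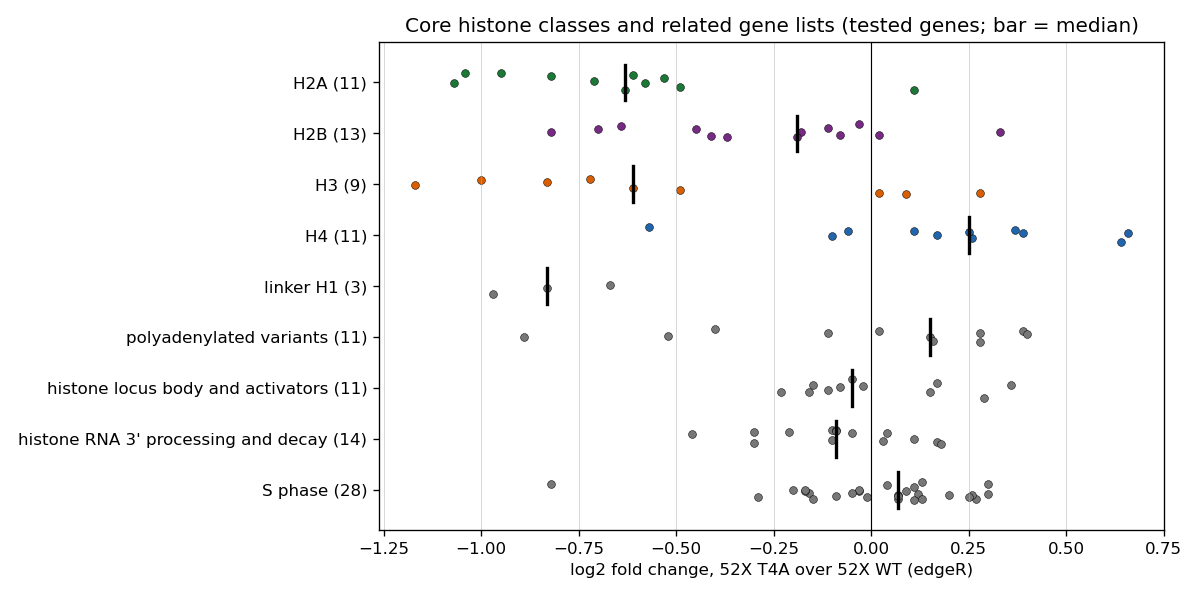
Log2 fold change (edgeR, 52X T4A over 52X WT) of each tested gene in the 4 core histone classes and 5 related lists, 1 point per gene with a bar at the median, number of tested genes in brackets, points spread vertically for legibility. H2A, H3 and linker H1 have medians of −0.63, −0.61 and −0.83, H4 of 0.25 and S phase genes of 0.07. None of the plotted genes passed an adjusted p of 0.05.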

How the data were processed

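Nascent RNA was measured by TT-seq in 4 libraries (52X WT and 52X T4A, 2 each). The authors deposited featureCounts raw counts of uniquely aligned reads per Ensembl gene. The submitters' processing notes name cutadapt 4.6, STAR 2.7.11b and GRCh38, and the annotation release and strand setting are not given in the sources used here. The listed length equals the gene span for all 60708 genes, so intronic reads were counted, which limits what a value says of a long-span gene. Of values between 1 and 10 counts, 85.1% were even, so 1 fragment may give 2 counts.

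Names, types and transcripts came from GENCODE v44, in the version mapped back to the genome build before GRCh38. They were joined by stable identifier (58742 matched), and upstream windows came from RefSeq (GRCh38.p14). edgeR 4.0.16 in R 4.3.3 (TMM, filterByExpr, quasi-likelihood test, Benjamini-Hochberg adjustment at 0.05) was fitted to all 4 libraries over 23321 genes. Standard errors were derived from the F statistic, log CPM used a prior count of 2, and single sums were tested by exact permutation. The edgeR script was tested on simulated data. Alternatives were DESeq2 1.42.0, other scaling and filters, protein-coding genes only, a replicate block, a length trend removed by lowess (span 0.3) and each library left out.

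Members and lists were chosen with earlier results of these data known. Named were, per class, the 4 genes with the highest mean CPM, members with an unadjusted p below 0.05, tested members outside chromosome 6 and members at 0, and in other lists those with an unadjusted p below 0.05 and the 2 with the highest CPM, besides POLR2A. Others named were chosen after their values were seen. Some genes of the lists are not reported here by name.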

Additional observations from a re-analysis of the deposited data

How the results depend on the processing

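Direction was the steadier part of these results and the number of calls the less steady one. Genes past an adjusted p of 0.05 numbered 892 with DESeq2 (4 core histone genes), 150 without a filter on low counts (1 core histone gene, H3C2) and 2 with the length trend removed, and from 0 to 3407 (0 to 28 core histone genes) with each library left out. Core histone genes lower at an unadjusted p below 0.05 numbered 2 with library sizes without TMM, 19 without a filter and from 1 to 24 with a library left out, and those higher from 3 to 7. With a library left out, the libraries that remained of T4A lay below those of WT for 19 to 33 members, a looser condition than with all 4. A replicate block gave 533 called genes (2.29% of all tested genes), with 15 of the 44 tested core histone genes among them. In that fit 20 members were lower at an unadjusted p below 0.05. Without a filter, 54 members were tested instead of 44, and the 150 called genes were 0.382% of 39234. The 892 genes called by DESeq2 were 10.1% of 8808, and 26 members had an adjusted p there. Shares of all tested genes at an unadjusted p below 0.05 were not summarized for the alternatives. The member counts at that p therefore do not separate the histone genes from a fit that calls more genes everywhere. Over all tested genes, deviations of same-numbered libraries correlated at 0.004975. With 2 libraries per group this correlation cannot decide whether the numbers pair the libraries, and the labels do not say. Leaving out each library, where the lone library is assumed to vary like the other group, gave medians of −0.73 to −0.10 over all members, −1.48 to −0.15 for H2A, −0.34 to −0.11 for H2B, −1.29 to −0.23 for H3, 0.23 to 0.39 for H4, −0.62 to −0.05 for chromosome 6 and −0.99 to −0.12 for chromosome 1, and a log2 ratio of summed CPM of −0.33 to −0.01. By listed length, a split chosen after seeing the data, extended members alone gave −0.03, compact H2B −0.64, compact H4 −0.06 (the opposite sign), extended H4 0.38, compact chromosome 6 −0.64, extended chromosome 6 0.05 (the opposite sign) and compact chromosome 1 −1.07. Of the 29 members that the naming rule picked, 26 kept their sign under every alternative run. Other members were not followed through the alternatives, and H4C11 and H4C12 lay on opposite sides of WT in the T4A libraries (−0.99 and 0.80, and −1.84 and 0.72). With each library left out, H3C14 ran from −7.59 to 0.52 (a fit against 0 counts, which depends on the prior count) and H2AC25 from −1.37 to 0.01, both above 0 without T4A replicate 1, and H4C16 from −0.08 without T4A replicate 2 to 0.29. The causes were not tested, and 2 libraries per group and the few counts of 17 members limit the precision.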
